A study of Mus musculus with 2 samples.

Results

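Ncr1+ group 3 innate lymphoid cells (ILC3s) are described here across 2 single-cell libraries of mouse small intestine, 1 unstimulated and 1 given the cytokine IL-23. The members were selected on the transcripts of the cells themselves, so the genes of that rule are described and not compared. A barcode was kept if it showed 500 genes or more and mitochondrial transcripts made up no more than 10% of its counts. A kept barcode was a member when it held at least 1 unique molecular identifier (UMI, 1 counted transcript) of Ncr1, none of the CD3 chains Cd3e, Cd3d and Cd3g, none of Ccr6 and at most 2 of the MHC class II genes H2-Aa, H2-Ab1 and H2-Eb1 together. The rule found 1021 of 10790 kept unstimulated cells, which is 9.46% (exact binomial 95% interval 8.92 to 10.0). It found 1222 of 9251 kept stimulated cells, which is 13.2% (12.5 to 13.9), so that members numbered 2243 of 20041 cells in all. The comparison cells were the other 9054 unstimulated and 7361 stimulated cells without a CD3-chain UMI, and among them the Ccr6+ cells, which held Ccr6, no Ncr1 and at most 2 MHC class II UMIs (1038 and 988 cells).

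The cells came from the small intestine of healthy Il23r-eGFP mice, a strain that carries a green fluorescent reporter at the gene of the IL-23 receptor, and both groups were live eGFP+ cells sorted from leukocytes after removal of Peyer's patches and epithelium. The stimulated library was given recombinant mouse IL-23 for 2 hours. The labels give neither the age nor the number of the animals, nor how the unstimulated cells were kept, and the protocol of both samples speaks of the stimulation, so that the unstimulated state rests on the group label. With 1 library for each group, the differences have no replicates behind them and carry no test, and all intervals cover counting error only.

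ILC3s are lymphocytes without antigen receptors that guard mucosal surfaces, chiefly by secreting IL-22, which acts on the epithelium. Some of them carry the natural cytotoxicity receptor NKp46, encoded by Ncr1, together with T-bet, encoded by Tbx21, and some genes of natural killer (NK) cells. Others carry CCR6 and resemble the lymphoid tissue inducer cells that build lymph nodes. IL-23, made by myeloid cells, signals through IL23R and IL12RB1 to the kinases JAK2 and TYK2 and the transcription factor STAT3, and SOCS3 limits that signal.

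A pair of upstream sequences is shown for genes on which the results turn, Socs3, the feedback inhibitor whose IL-23 ratio differed between members and other cells, and Nkg7, a cytotoxic granule gene that marks the members. The sequences are the 250 bases before a RefSeq transcription start on GRCm38.p6, 5′ to 3′ on the gene's strand. Capitals mark in Socs3 (chr11:117969367-117969616, minus strand) a match to TTCNNNGAA, the letters that STAT proteins bind, 154 bases before the start. In Nkg7 (chr7:43436888-43437137, plus strand) they mark a match to TTCNNNGAA 220 bases before the start and a match to AGGTGTGA, letters bound by T-box factors such as T-bet, 14 bases before it.
Socs3: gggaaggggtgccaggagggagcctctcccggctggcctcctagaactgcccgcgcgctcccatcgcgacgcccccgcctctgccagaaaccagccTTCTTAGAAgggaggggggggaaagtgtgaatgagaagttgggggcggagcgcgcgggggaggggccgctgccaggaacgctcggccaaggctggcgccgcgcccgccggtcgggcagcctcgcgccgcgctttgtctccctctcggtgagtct
Nkg7: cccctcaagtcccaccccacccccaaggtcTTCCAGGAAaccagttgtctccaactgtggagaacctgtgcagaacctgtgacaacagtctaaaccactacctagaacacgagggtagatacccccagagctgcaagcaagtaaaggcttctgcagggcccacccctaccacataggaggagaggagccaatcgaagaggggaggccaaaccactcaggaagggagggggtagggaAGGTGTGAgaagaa
Both motifs were searched on both strands and do not overlap each other in these windows. TTCNNNGAA was in 7.02% of all 32851 such windows and in those of 8.13% of 27025 genes, in 5 of 22 STAT3 targets (Socs3, Bcl6, Sbno2, Tnfrsf25 and Zfp36) in 4 of 22 matched genes of the type 1 and cytotoxic list (Ifng, Il12rb2, Il18r1 and Nkg7) and in 0 of the 11 matched genes of highest IL-23 ratio. AGGTGTGA was in 1.12% of all windows and in those of 1.30% of genes. It was in 1 of 22 matched genes of the type 1 and cytotoxic list, Nkg7, in 0 of 22 STAT3 targets and in 0 of the 11 matched genes of highest IL-23 ratio. The motifs and both genes were chosen after their values were seen, and a match is a description of the letters only. GENCODE models of both genes begin farther upstream, Socs3 spanning chr11:117966079-117970047 and Nkg7 chr7:43437073-43438249.

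The unstimulated library held 11096 barcodes with 58443284 UMIs and the stimulated library 10440 barcodes with 62291905, with medians of 4928 and 6087 UMIs per kept cell. Members were deeper, with medians of 5917 and 7252.5 UMIs and 2086 and 2272.5 genes, against 4740.5 and 5825 UMIs in the other CD3-chain-negative cells. Their summed counts were 6564727 and 9547383 UMIs, and mitochondrial transcripts took 2.65% and 3.20% of the UMIs. The libraries shared 29 barcode sequences, 0 of them between members. Applied to cells thinned to 2000 UMIs, the rule took 4.54% of the unstimulated and 5.63% of the stimulated CD3-chain-negative cells, against 10.1% and 14.2% unthinned. The part of depth in the larger stimulated share was not tested.

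The rule rests on few transcripts per cell. Of the members, 722 unstimulated and 821 stimulated cells held exactly 1 Ncr1 UMI, 207 and 270 held 2, and 92 and 131 held 3 or more. Just outside the rule lay 48 and 59 Ncr1+ cells with a Ccr6 UMI, 19 and 40 Ncr1+ cells with a CD3-chain UMI, and 12 and 5 Ncr1+ cells with 3 MHC class II UMIs. In all CD3-chain-negative cells together, which no Ncr1 threshold selects, Ncr1 stood at 29.9 CPM (UMIs of the gene per 1000000 UMIs of the class, exact Poisson 95% interval 28.4 to 31.4) unstimulated and 34.8 CPM (33.3 to 36.4) stimulated. Cells with at least 3 CD3-chain UMIs held a Ncr1 UMI in 1.56% and 2.01% of cases, at median depths of 6439.5 and 7594 UMIs. B-lineage cells held one in 7.27% of 55 (exact binomial 95% interval 2.02 to 17.6) and 4.55% of 44 (0.555 to 15.5), at 6114 and 7252.5 UMIs, and myeloid cells in 0 of 9 and 0 of 5. The cells called B-lineage also held much Il22, as given below, and what they are was not tested. The background at which a Ncr1 UMI appears in cells of another type is therefore known at best within these intervals. Members with exactly 1 Ncr1 UMI cannot be told from that background one by one.

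The markers other than Ncr1 followed the label, as a description of the same cells that the rule chose. Tbx21 stood at 25.1 CPM (21.4 to 29.3) in unstimulated and 22.8 CPM (19.9 to 26.1) in stimulated members, against 8.65 and 7.42 CPM in the other cells and 1.89 and 1.18 CPM in the Ccr6+ cells. Nkg7 stood at 67.9 and 77.8 CPM in members, 23.4 and 24.2 CPM in the others, and 2.76 and 3.09 CPM in Ccr6+ cells. Ctsw, a cathepsin of cytotoxic lymphocytes, stood at 152 and 154 CPM against 60.3 and 55.6 CPM. Each of these 3 levels was higher in members in both libraries. The intervals did not overlap those of the other cells, but they count UMIs only and leave out the spread between cells. Il7r, the IL-7 receptor chain on which ILCs depend, stood at 492 and 351 CPM in members against 345 and 266 CPM, which is 1.43-fold and 1.32-fold higher and short of the 1.5-fold used below as a size. Il23r itself stood at 133 and 200 CPM in members and at 128 and 184 CPM in the others.

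**Figure D1:**
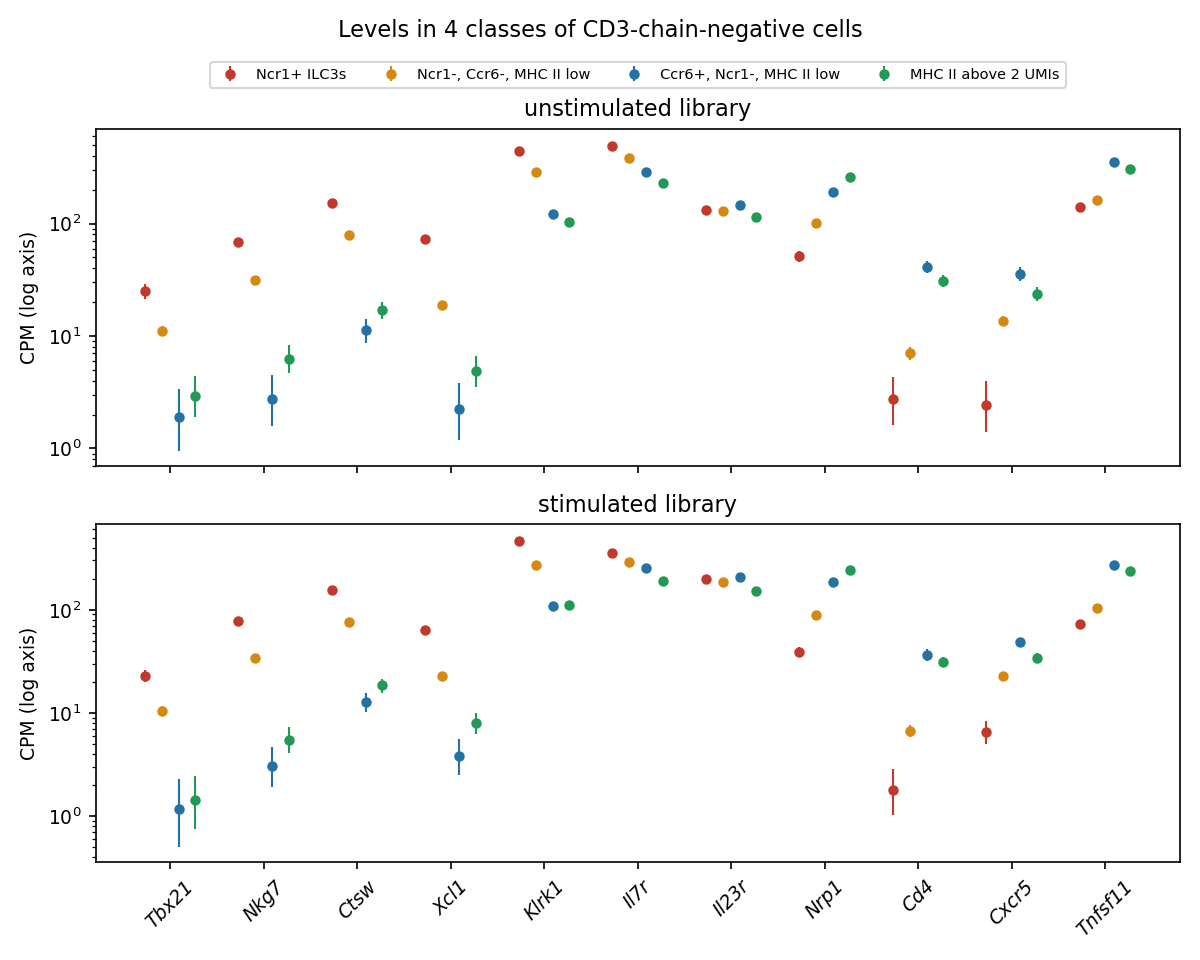
Levels of 11 genes in 4 classes of CD3-chain-negative cells, as CPM on a log axis with exact Poisson 95% intervals, 1 panel per library. Tbx21, Nkg7, Ctsw, Xcl1 and Klrk1 are highest in the Ncr1+ ILC3s and Cd4, Cxcr5, Nrp1 and Tnfsf11 lowest, while the Il23r levels lie close together (Il23r 133 and 146 CPM in unstimulated members and Ccr6+ cells).

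The plot of marker levels by class shows an order that held in both libraries, with members at the type 1 end, the Ccr6+ and MHC class II-high cells at the other, and the cells without Ncr1, Ccr6 or MHC class II between. Those intermediate cells, 6602 and 5094 in number, held Tbx21 at 11.1 and 10.4 CPM and Nkg7 at 31.2 and 34.5 CPM. Klrk1, which encodes the activating receptor NKG2D, ran from 443 and 462 CPM in members through 285 and 272 CPM in the intermediate cells to 121 and 109 CPM in Ccr6+ cells.

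Transcripts of other cell types were mostly absent from the members. Of 13 markers of NK cells and ILC1s, 6 had 0 UMIs in both libraries (Gzmk, Klra4, Klra8, Klra9, Ncam1 and Cma1), and Eomes, the factor that defines NK cells, stood at 0 CPM unstimulated and 0.209 CPM stimulated. Their sum was 78.6 and 182 CPM in members against 45.7 and 80.9 CPM in the others, carried by Gzma, Gzmb and Itga1. Of 11 B and plasma cell markers none reached 10 CPM in members, and their sum was 18.9 and 9.74 CPM against 1745 and 437 CPM in the others, which hold the B-lineage cells. Of 11 myeloid markers 2 were at 0 (Adgre1 and Itgax), C1qa stood at 0.457 and 0.105 CPM, and the sum of 283 and 244 CPM was Cst3 and Fcgr3 for the most part. Of 11 epithelial markers 6 were at 0, among them Fabp1, and of 10 ILC2 markers Il13, Hs3st1 and Il9r were at 0. Of 12 T cell genes in the table, Trac stood at 2.44 and 2.09 CPM and Trdc at 1.68 and 1.47 CPM, but the T cell receptor beta constant genes were abundant. Trbc1 stood at 365 and 307 CPM and had a UMI in 70.8% and 70.0% of members, against 41.1% and 40.3% of the other cells. Leaving out every cell with a UMI of Trac, Trbc1, Trbc2 or Trdc kept 128 and 194 members. The part of these other transcripts in the results was not tested otherwise.

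Against the other CD3-chain-negative cells, members differed in part of their transcripts in the same direction in both libraries. Of 6737 genes measured in both, that is with at least 10 CPM in 1 or both sums and at least 20 UMIs over them, 228 were at least 1.5-fold higher in members in both libraries (3.38%) and 240 at least 1.5-fold lower (3.56%). In the single libraries, 5.09% of 7077 genes were that much higher and 5.24% lower unstimulated, and 4.95% of 6865 were higher and 5.74% lower stimulated. The median log2 ratio over all measured genes was -0.01 and -0.03. Against only the cells without Ncr1 or Ccr6, 104 genes were higher and 109 lower in both libraries. With the rule on thinned cells these numbers were 127 and 193.

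Many genes of NK-type receptors and their adaptors were higher in members. Of 13 measured unstimulated, 8 were at least 1.5-fold higher and 0 lower, with a median log2 ratio of 0.93, and of 14 measured stimulated 11 were higher and 0 lower, with a median of 1.02. The receptor chains Klrc1 (46.0 and 57.0 CPM against 19.3 and 21.3) and Klrc2 (21.2 and 30.8 CPM against 9.05 and 11.0), which encode NKG2A and NKG2C, were higher in both libraries. Their signalling adaptors Tyrobp (34.1 and 30.2 CPM against 16.2 and 15.7) and Hcst (270 and 264 CPM against 142 and 137) followed. Cd160, a receptor for HVEM, stood at 19.8 and 12.9 CPM against 10.7 and 5.95 CPM. Klrb1c, the NK1.1 antigen, was detected in 4.51% and 4.99% of members and in 1.12% and 1.32% of the others.

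The type 1 and cytotoxic program was also higher. Of 20 measured genes 10 were higher and 1 lower unstimulated, with a median of 0.61, and 13 were higher and 0 lower stimulated, with a median of 0.75. Xcl1, a chemokine that attracts XCR1+ dendritic cells, led unstimulated, with 72.4 and 64.1 CPM in members against 14.3 and 17.4 CPM, a log2 ratio of 2.34 and 1.88. It was found in 13.5% and 13.2% of members and in 3.05% and 3.78% of the others. Fasl, a death ligand, stood at 29.7 and 26.9 CPM against 11.3 and 7.85 CPM. Gzmc and Gzmb, which encode granzymes, stood at 499 and 552 CPM against 292 and 259 CPM, and at 50.1 and 94.7 CPM against 25.6 and 38.1 CPM. Prf1, which encodes perforin, stayed at 4.72 and 7.02 CPM and was not among the measured genes.

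Other genes of high ratio included Cxcl2 and Cxcl3 and a pair of survival genes. Cxcl3, a neutrophil chemokine, stood at 315 and 281 CPM in members against 122 and 129 CPM, and its neighbour Cxcl2 at 715 and 466 CPM against 356 and 262 CPM. Bcl2a1d and Bcl2a1b, near-identical survival genes whose reads can be split between copies, stood at 212 and 123 CPM against 76.9 and 45.1 CPM, and at 147 and 65.8 CPM against 61.0 and 28.8 CPM. The list of survival and death genes as a whole had 4 of 17 higher and 3 lower unstimulated (median 0.03), and 3 higher and 3 lower stimulated (median 0.05). Dusp4, Cdk14 and Sh2d2a were also among the 10 highest, at 62.9, 57.0 and 78.1 CPM unstimulated. Areg, which encodes the epithelial growth factor amphiregulin, stood at 57.9 and 93.1 CPM against 27.2 and 16.6 CPM. Of the genes for homing and residence, 11 of 21 were higher and 3 lower unstimulated (median 0.62), and 9 of 18 were higher and 2 lower stimulated (median 0.35). The receptors Cxcr6 (948 and 522 CPM against 598 and 324) and Ccr9 (20.4 and 17.1 CPM against 10.1 and 6.56) were higher, and S1pr1, which guides cells out of tissue, was lower, at 1.52 and 3.77 CPM against 15.7 and 30.1 CPM.

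Many genes of the Ccr6+ ILC3 list were lower in members, from which the rule kept Ccr6+ cells apart. Of 14 measured genes of the Ccr6+ ILC3 list 9 were lower and 2 higher unstimulated (median -0.86), and of 13 measured stimulated 8 were lower and 1 higher (median -0.96). Cd4 stood at 2.74 and 1.78 CPM in members against 41.2 and 36.4 CPM in Ccr6+ cells, and Nrp1, a semaphorin receptor of inducer cells, at 51.0 and 39.3 CPM against 191 and 184 CPM. Cxcr5, which guides cells to B cell follicles, stood at 2.44 and 6.49 CPM against 35.8 and 48.3 CPM. Tnfsf11, the inducer cytokine RANKL, stood at 141 and 72.1 CPM against 355 and 273 CPM. Directly against the Ccr6+ cells, 9.51% of 7276 genes were at least 1.5-fold higher and 14% lower unstimulated, and 9.53% of 7044 were higher and 12.5% lower stimulated. Outside that list, Pdcd1, which encodes the checkpoint receptor PD-1, was 13.3-fold and 12.6-fold lower in members than in the other cells, at 6.85 and 5.34 CPM against 92.1 and 67.8 CPM. Cd81, a tetraspanin, was 10.9-fold and 8.64-fold lower, at 7.62 and 10.4 CPM in members. Tnfsf8, the CD30 ligand, stood at 3.05 and 1.99 CPM against 32.4 and 23.2 CPM. Foxs1, Bmp2, Palld and Tgm2 were 6.24-fold to 14.9-fold lower unstimulated, and the angiogenic factor Vegfa was 6.12-fold lower stimulated.

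The core genes of ILC3s set members apart less. Of 24 measured, 4 were higher and 3 lower unstimulated (median 0.13), and 4 were higher and 2 lower stimulated (median 0.16). Ikzf2 and Ikzf3, zinc finger factors of lymphocytes, were higher at 472 and 775 CPM against 247 and 396 CPM, and at 233 and 261 CPM against 129 and 142 CPM. Tox, a factor of early ILC development, was lower at 34.7 and 30.7 CPM against 68.1 and 61.3 CPM. Kit (527 and 315 CPM against 506 and 317) and Id2 (568 and 604 CPM against 522 and 630) were within 1.5-fold.

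With IL-23, 359 of 6885 measured genes were at least 1.5-fold higher in members (5.21%) and 507 at least 1.5-fold lower (7.36%). The median log2 ratio over all measured genes was -0.12, so a gene at 0 stood slightly above the middle. Scaled by TMM, which moves that middle by -0.14, the split was 475 higher and 271 lower, and scaled to the median ratio 459 and 292. In the other CD3-chain-negative cells 251 of 6995 genes were higher (3.59%) and 246 lower (3.52%), with a median of -0.11. Among the 128 and 194 members without T cell receptor transcripts, 627 genes were higher and 1061 lower. These sums come from far fewer cells and carry more counting error, so the larger numbers are not read as a stronger response. Of the genes measured in both, the 220 higher in both were 65.9% of the members' 334 and 94.0% of the others' 234. The 188 lower in both were 40.5% of the members' 464 and 85.1% of the others' 221. The sums were smaller in members, 6564727 and 9547383 UMIs against 46732184 and 46521768 in the others, so ratios in members carry more counting error. These counts and shares are therefore not read as a broader response of members, and the part of counting error was not tested.

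**Figure D2:**
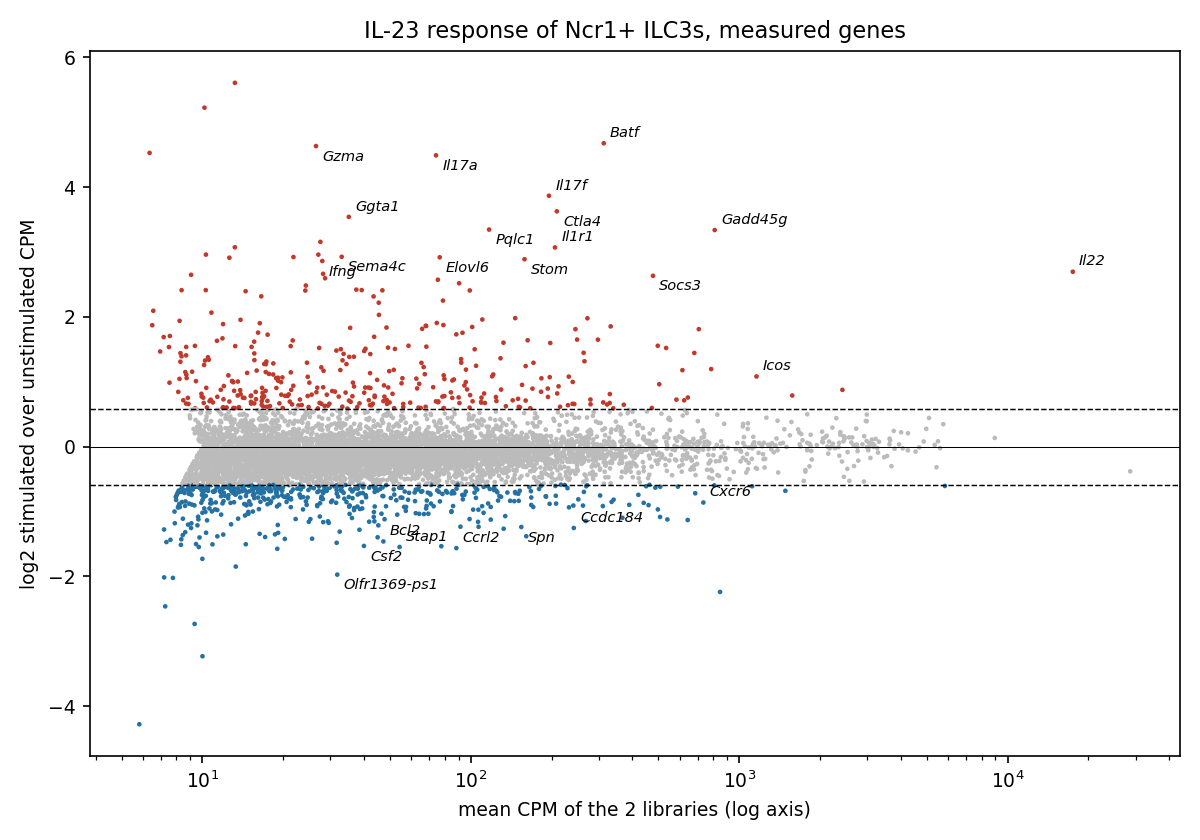
IL-23 ratio (log2 stimulated over unstimulated CPM) of each measured gene in Ncr1+ ILC3s against the mean CPM of the 2 libraries on a log axis, with the genes at least 1.5-fold higher in red and lower in blue, and dashed lines at that size. Batf (4.68), Gzma (4.63) and Il17a (4.49) stand highest among named genes with at least 50 CPM, with a few unnamed genes of lower level above them, and Il22, at 2.70, lies farthest to the right of the genes past the lines.

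The plot of IL-23 ratios by level shows the largest ratios among increases. The unnamed blue point near 1000 CPM is the gene model Gm10076, outside the naming rule, at 1400 and 296 CPM in members and at 1442 and 292 CPM in the other cells. Batf, an AP-1 factor of type 17 lymphocytes, had the highest ratio among genes with at least 50 CPM, from 23.5 CPM (19.9 to 27.5) to 602 CPM (587 to 618), which is 25.6-fold (21.9 to 30.3). A Batf UMI was in 12.4% of unstimulated and 87.7% of stimulated members, and in 3.94% and 61.8% once cells were thinned.

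The effector cytokines were the most abundant part of the response. Of 14 measured, 7 were higher with IL-23 (Il17a, Il17f, Ifng, Il22, Tnfsf14, Lif and Areg) and 4 lower (Csf2, Ltb, Tnfsf11 and Tnf), with a median log2 ratio of 0.47. This count and those of the lists below stand beside 5.21% of all measured genes higher and 7.36% lower in members. In the others these shares were 3.59% and 3.52%. Areg counts as higher through 1 cell, which gave 265 of its 889 stimulated UMIs, and without that cell it stood at 65.4 CPM against 57.9 unstimulated, within the size used here. Il22 went from 4674 to 30298 CPM, which is 6.48-fold (6.41 to 6.56). In the other cells it went from 6010 to 25916 CPM, 4.31-fold, and in Ccr6+ cells from 8197 to 27950 CPM, 3.41-fold. Members thus held less Il22 than the others unstimulated and more stimulated.

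Cell by cell, 257 of 1021 unstimulated members had no Il22 UMI (25.2%), against 14.5% of the others and 3.85% of Ccr6+ cells, although members were deeper. The median member held 10.7 Il22 UMIs per 10000 UMIs, against 33.9 and 50.3. The top 10% of unstimulated members held 60.1% of the members' Il22 UMIs. With IL-23, 5 of 1222 members had none (0.409%) and the medians were 225, 202 and 212 per 10000. An Il22 UMI was also in 5 of 5 myeloid cells of the stimulated library, at 2862 CPM and a median depth of 6183 UMIs, and in 33.3% of the 9 unstimulated ones, at 506 CPM and 5559 UMIs. The share of cells with a UMI is therefore not read as the share of cells that make Il22.

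**Figure D3:**
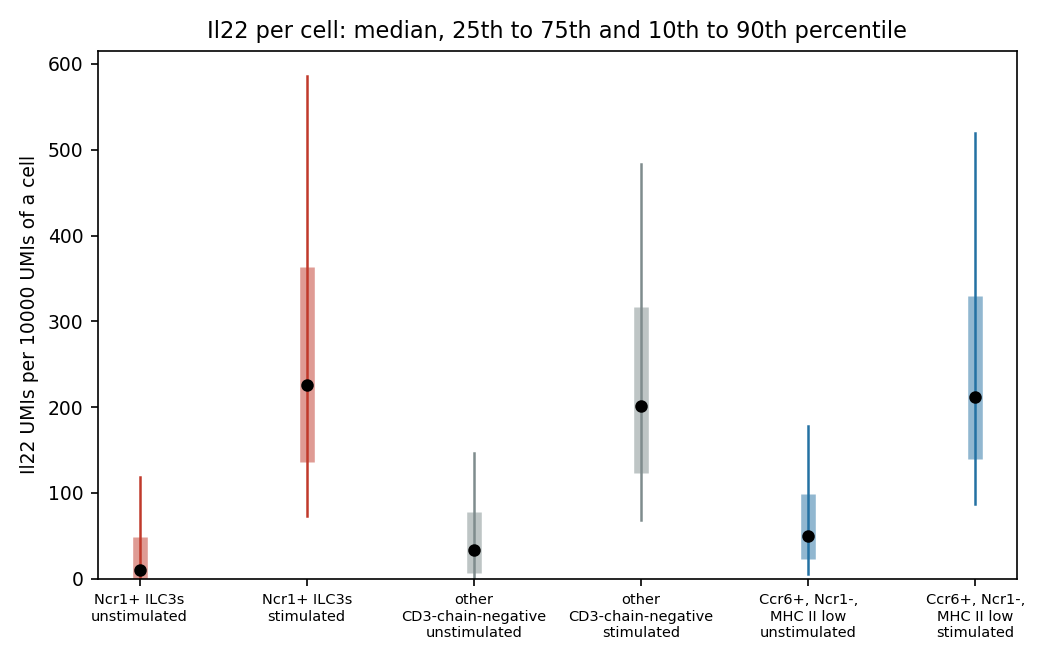
Il22 UMIs per 10000 UMIs of a cell in 3 classes and both libraries, as the median (point), the 25th to 75th percentile (wide bar) and the 10th to 90th percentile (line). The unstimulated Ncr1+ ILC3s are lowest, with a median of 10.7, and the stimulated medians lie between 202 and 225.

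The plot of Il22 per cell shows the 3 stimulated classes close together and the 3 unstimulated ones in the order members, others, Ccr6+ cells. The type 17 cytokines kept another order. Il17a went from 6.25 CPM (4.48 to 8.47) to 142 CPM (135 to 150) in members, 22.5-fold (16.7 to 31.9), against 27.9 and 340 CPM in the others and 40.8 and 453 CPM in Ccr6+ cells. A single cell gave 320 of the 1357 stimulated Il17a UMIs, and without it the level was 109 CPM. Il17f went from 24.98 to 366 CPM, 14.6-fold (12.5 to 17.2), against 105 and 814 CPM in the others. Members therefore stood below the others in both genes and both libraries, with larger ratios. An Il17f UMI was in 6.46% and 37.0% of members and in 19.5% and 57.4% of the others, and after thinning in 3.06% and 20.4% against 12.1% and 43.6%.

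Cells called B-lineage for at least 2 UMIs of Cd79a and Cd79b also held such UMIs. They were no cytokine-free background, with an Il22 UMI in 72.7% and 97.7% of them. After thinning they held 13.8 and 50.1 Il22 UMIs on average, against 12.3 and 50.1 in the other CD3-chain-negative cells. What these cells are was not tested, so their shares are given as a comparison and not as those of non-producers. An Il17f UMI was in 23.6% of 55 unstimulated (13.2 to 37.0) and 59.1% of 44 stimulated B-lineage cells (43.2 to 73.7), at 6114 and 7252.5 UMIs, and an Il17a UMI in 10.9% and 25%. The members' shares for Il17f and Il17a (1.67% and 10.8%) are not above these. They are given as description, and are read neither as the share of cells that express the gene nor as a difference in that share. A Gzma UMI was in 5.45% and 4.55% of B-lineage cells, a Csf2 UMI in 7.27% and 4.55%, and an Ifng UMI in 0 of 55 and 0 of 44, which an exact interval puts at up to 6.49% and 8.04%. The upper limits were 15.1% and 15.5% for Gzma and 17.6% and 15.5% for Csf2. Members' shares for Gzma (0.588% and 6.46%), Csf2 (15.9% and 7.61%) and Ifng (2.35% and 7.28%) lie under these limits and are treated in the same way. For Ctla4 the B-lineage share was 16.4% (7.77 to 28.8) and 18.2% (8.19 to 32.7), and for Batf 9.09% and 70.5% (54.8 to 83.2).

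For type 1 effectors, UMIs of Ifng and Gzma were found in fewer members than UMIs of Gzmb, given as description only. Ifng, which encodes interferon-γ, went from 6.70 to 49.2 CPM, 7.27-fold (5.39 to 10.2), and had a UMI in 2.35% and 7.28% of members. The others held 1.90 and 8.75 CPM, with a UMI in 0.563% and 1.56% of cells. Gzma, which encodes granzyme A, went from 1.98 CPM (13 UMIs in 6 cells) to 51.0 CPM (487 UMIs in 79 cells), against 0.621 and 17.0 CPM in the others. Gzmb went from 50.1 to 94.7 CPM, 1.89-fold (1.66 to 2.15), and had a UMI in 10.9% and 19.5% of members. Of 21 measured genes of the type 1 and cytotoxic list, 4 were higher with IL-23 (Gzma, Ifng, Ccl4 and Gzmb) and 2 lower (Cxcr6 and Cxcr3), with a median of 0.01. Over all measured genes 5.21% were higher and 7.36% lower. Of the 48 unstimulated Ccl4 UMIs 26 came from 1 cell. Tbx21 had a ratio of -0.14 and Nkg7 of 0.20, both within the size used here.

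**Figure D4:**
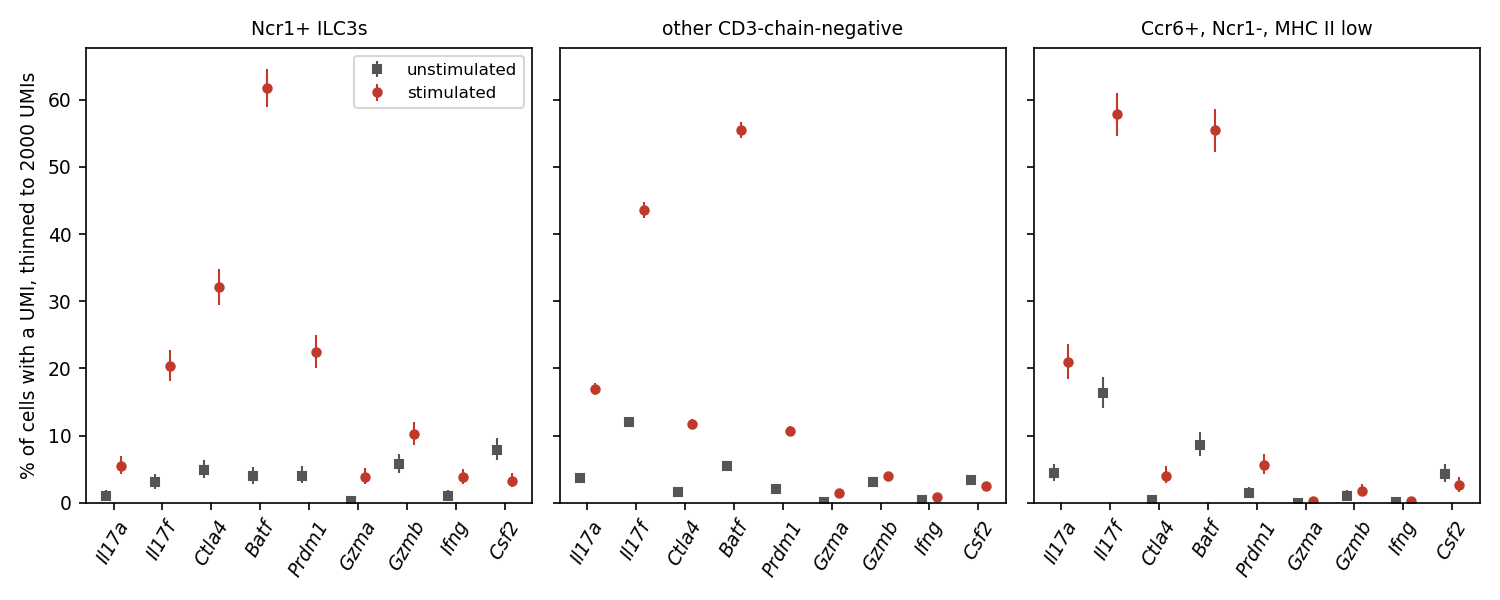
Share of cells with a UMI of 9 genes after every cell was thinned to 2000 UMIs, with exact binomial 95% intervals, unstimulated (grey squares) and stimulated (red circles), in Ncr1+ ILC3s, the other CD3-chain-negative cells and Ccr6+ cells. Among stimulated members Ctla4 reaches 32.1% and Il17f 20.4%, while among the other cells Ctla4 stands at 11.7% and Il17f at 43.6%.

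The plot of thinned shares sets members and Ccr6+ cells side by side at equal depth, for Il17a, Il17f, Gzma, Ifng and Csf2 as description only. Ctla4, which encodes an inhibitory receptor for B7 ligands, went from 31.2 CPM (27.1 to 35.8) to 387 CPM (375 to 400) in members, 12.4-fold (10.8 to 14.3). It went from 13.3 to 132 CPM in the others and from 5.68 to 43.3 CPM in Ccr6+ cells. Its unthinned share went from 11.1% to 50.3% of members, against 4.10% and 20.5% of the others. The unstimulated share is not above that of B-lineage cells and the stimulated one is. Cells with at least 3 CD3-chain UMIs held more of it, 498 and 939 CPM. Prdm1, which encodes the repressor Blimp-1, had the same order, with 26.8 and 154 CPM in members, 11.6 and 73.3 CPM in the others and 4.65 and 34.5 CPM in Ccr6+ cells.

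Of 14 measured checkpoint and co-stimulatory receptors, 5 were higher with IL-23 (Ctla4, Cd244a, Icos, Tnfrsf18 and Cd274) and 3 lower (Nt5e, Cd27 and Cd160), with a median of -0.12. Over all measured genes in members 5.21% were higher and 7.36% lower. Icos, a co-stimulatory receptor, went from 744 to 1575 CPM, 2.12-fold (2.05 to 2.19), and Tnfrsf18, which encodes GITR, from 342 to 665 CPM. Cd244a, an NK receptor of the SLAM family, went from 7.62 to 48.7 CPM. Nt5e, the ectoenzyme CD73, was 1.94-fold lower, at 89.9 and 46.4 CPM. In the others 4 of 13 measured were higher and 4 lower, with Ctla4, Cd244a, Icos and Tnfrsf18 again the higher ones.

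Among the genes that carry the IL-23 signal, 4 of 13 measured were higher in members (Socs3, Socs1, Stat5b and Il23r) and Socs2 was lower, with a median of 0.22. In the others Socs3 alone was higher and 0 were lower, with a median of 0.15. Sums in members carry more counting error, so these counts are not read as a broader response of members. Socs3 went from 132 CPM (124 to 141) to 822 CPM (804 to 841) in members, 6.21-fold (5.79 to 6.67), and from 275 to 806 CPM in the others, 2.93-fold. It had a UMI in 37.2% of unstimulated members and 55.2% of the others, and in 89.3% and 89.4% with IL-23. The unstimulated level was thus lower in members, and the stimulated levels were 1.02-fold apart. Il23r itself went from 133 to 200 CPM, just past the 1.5-fold size, and also rose in the others, to just short of it. Its call thus differs between the classes while its ratios lie close together.

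Of 23 measured STAT3 targets 12 were higher in members and 3 lower (Ier3, Pim3 and Maf), with a median of 0.76, against 13 higher, 1 lower and a median of 1.04 in the others. Over all measured genes 5.21% were higher and 7.36% lower in members, and 3.59% and 3.52% in the others. Ier3 counts as lower through 1 cell, which gave 66 of its 94 unstimulated UMIs, and without that cell its log2 ratio was 0.58. After Batf and Socs3 came Il1r1, the IL-1 receptor, from 43.7 to 368 CPM, 8.40-fold (7.46 to 9.53), against 75.5 and 354 CPM in the others. Bcl3, an IκB-like coactivator, went from 21.6 to 129 CPM, and Cebpd, a bZIP factor, from 31.4 to 167 CPM. Ahr, the aryl hydrocarbon receptor that ILC3s need, went from 44.0 to 158 CPM, and Myc from 7.31 to 41.3 CPM. Of 26 measured transcription factors of ILC identity 10 were higher and 2 lower (Gata3 and Maf), with a median of 0.13. Gata3 went from 74.0 to 38.9 CPM. Other genes among the 12 highest were the stress gene Gadd45g (146 and 1475 CPM), the fatty acid elongase Elovl6 (17.8 and 135 CPM), the semaphorin Sema4c (7.62 and 58.4 CPM), Ggta1, Pqlc1 and Stom.

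Among genes with at least 50 CPM the largest decreases were smaller than the largest increases. Csf2, which encodes the myeloid growth factor GM-CSF, went from 59.4 CPM (53.7 to 65.6) to 20.5 CPM (17.8 to 23.6), 2.89-fold lower, and from 25.3 to 20.6 CPM in the others. Its share of cells went from 15.9% to 7.61% of members, and from 7.89% to 3.30% after thinning. Members thus held more Csf2 than the others unstimulated and a like level stimulated. Ccrl2, a chemerin-binding receptor, went from 132 to 44.6 CPM, and Stap1, a signalling adaptor, from 80.9 to 27.7 CPM. Bcl2, the survival gene, went from 69.3 to 25.1 CPM, 2.75-fold lower, against 113 and 58.3 CPM in the others. The pseudogene Olfr1369-ps1 had the lowest ratio of the genes under the naming rule, from 50.7 to 12.9 CPM, with 67 of its 333 unstimulated UMIs in 1 cell.

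The decreases in 4 further lists stand beside 7.36% of all measured genes lower and 5.21% higher in members, with a median of -0.12. Of 21 measured NF-κB targets and regulators 8 were lower and 4 higher, with a median of -0.24, among them Bcl2a1b (147 and 65.8 CPM), Cd83 (112 and 59.5 CPM) and the inhibitor Tnfaip3 (569 and 312 CPM). Of 22 measured immediate early genes 8 were lower and 2 higher, with a median of -0.21, and the nuclear receptor Nr4a1 went from 500 to 234 CPM. Egr1 and Ier3 are among these 8, but 87 of 163 unstimulated Egr1 UMIs and 66 of 94 of Ier3 came from 1 cell each, and without the deepest 5% of cells both ratios changed sign. Of 11 measured heat shock genes 3 were lower (Hspa1b, Hspa1a and Hsph1) and 0 higher, with a median of -0.35. Of 19 measured genes of homing and residence 7 were lower and 3 higher, with a median of -0.20. In the others the NF-κB list had 2 higher and 4 lower (median -0.12), immediate early genes 3 and 4 (0.17), heat shock genes 0 and 0 (-0.22), and homing genes 4 and 6 (-0.14). Cxcr4, the receptor for CXCL12, went from 18.1 to 1.89 CPM and from 27.4 to 11.8 CPM in the others.

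The IL-23 ratio itself differed little between members and the other cells. Of 6670 genes measured in both, 55 had a ratio at least 1.5-fold larger in members (0.825%) and 43 at least 1.5-fold smaller (0.645%), with a median log2 difference of -0.01. Among genes with at least 50 CPM, the differences were largest for Areg (1.40), Socs3 (1.08), Il17f (0.91), Tspan13 (0.90), Il17a (0.89), Sema4c (0.89), Rasl11a (0.85) and Il1r1 (0.84). For Il17f, Il17a, Tspan13, Rasl11a, Il1r1 and Socs3 the unstimulated level was lower in members than in the others. Areg went up in members, from 57.9 to 93.1 CPM, and down in the others, from 27.2 to 16.6 CPM. However, 265 of its 889 stimulated UMIs came from 1 cell, without which the level was 65.4 CPM, and the share of members with a UMI went from 11.1% to 8.43%, so no direction is read for Areg. For Il17a 1 cell gave 320 of the 1357 stimulated UMIs in members, and without it the difference was 0.51, under the size used here, while it was 0.98 without the cell of most Il17a UMIs in every class and library. At the other end stood Csf2 (-1.23), Olfr1369-ps1 (-0.85), Rassf3, Hspa1a (-0.68), Sdhaf1, Fam110a, Ccrl2 and Plagl1. For Hspa1a the sign was not stable, with 0.092 when members held at least 2 Ncr1 UMIs and 0.15 against Ccr6+ cells, and it was -0.42 without the unstimulated member that held the most of its UMIs. For Olfr1369-ps1 that last value was -0.54.

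**Figure D5:**
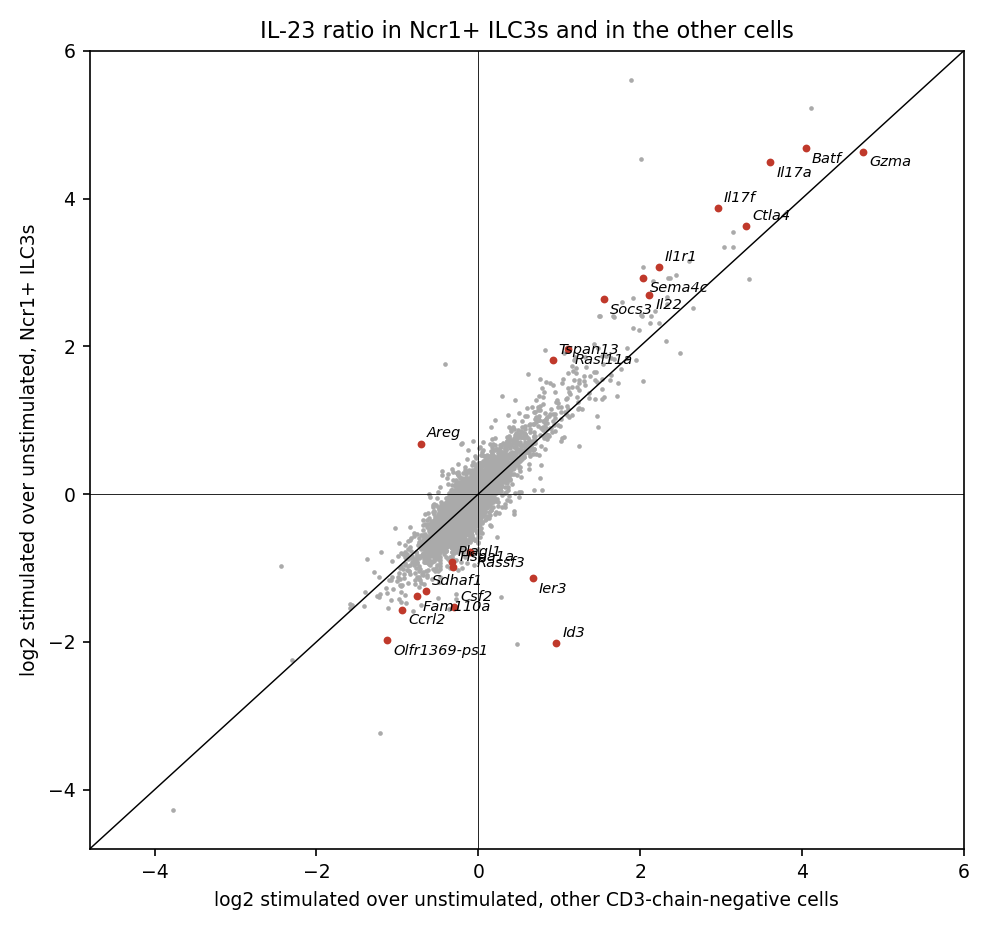
IL-23 ratio (log2 stimulated over unstimulated CPM) of each gene in Ncr1+ ILC3s against the same ratio in the other CD3-chain-negative cells, with the line of equal ratios and named genes in red. Most genes lie along the line, Socs3, Il17a and Il17f above it and Csf2 below it, and Areg lies in the quadrant of opposite signs (0.68 in members and -0.71 in the others).

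The plot of both ratios shows the common response as the long arm toward Batf and Gzma at the upper right. Both axes compare the same 2 libraries in different cells.

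Among themselves the members differed in Il22 by the transcripts they carried. Unstimulated members with 1, 2 and 3 or more Ncr1 UMIs held Il22 at 4027, 5615 and 7125 CPM and Xcl1 at 58.5, 95.4 and 119 CPM, with median depths of 5793, 6090 and 6569 UMIs. With IL-23 the same 3 classes held Il22 at 28654, 32639 and 35033 CPM. Xcl1 then stood at 52.0, 65.9 and 129 CPM, at median depths of 7206, 7286.5 and 7753 UMIs. Both genes were thus higher where more Ncr1 was counted, but other genes did not follow. Stimulated Il17a stood at 159, 134 and 63.4 CPM, Il17f at 404, 284 and 311 CPM, and Ifng at 52.3, 25.8 and 77.9 CPM. Ncr1 is a gene of the rule, so this order is given as description only.

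The 495 stimulated members with an Il17a or Il17f UMI held Tbx21 at 14.4 CPM and Nkg7 at 54.7 CPM, against 29.7 and 96.8 CPM in the 727 members without one, which were shallower (7077 against 7855 UMIs). They held Il22 at 35473 CPM against 26059 CPM. The 615 stimulated members with a Ctla4 UMI held Gzma at 78.9 CPM and Nkg7 at 97.1 CPM, against 17.9 and 55.0 CPM in the 607 without, and Il17f at 274 CPM against 475 CPM. A Gzma UMI was in 8.94% of the first and 3.95% of the second, at median depths of 7677 and 6978 UMIs. Within the stimulated members, Il17a was found together with Il17f in 89 cells (67.4% of those with Il17a, against 33.3% of those without) and with Ifng in 7 (5.30% against 7.52%). These splits rest on counts of 1 or more UMI in cells of unequal depth and are descriptions of 1 library each. They are not read as a division into cells that make a transcript and cells that do not.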

How the data were processed

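Single-cell RNA counts of 2 libraries were analysed, 1 unstimulated and 1 given IL-23. The authors deposited UMI counts per gene and barcode, with no normalization. Cell Ranger 3.1.0 and build mm10 are named per the submitters' processing notes, while the deposited count matrices name cellranger 6.0.0, per the file headers. For the annotation and for how barcodes were called cells, no source used here gives a statement. The members, gene lists, motifs and tests were chosen with earlier results of these data known.

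Counts were summed over the cells of a class and given as CPM. Ratios used the sums with 0.5 UMI added. A gene counted as measured if either sum reached 10 CPM and both together held 20 UMIs, and was called higher or lower at 1.5-fold. Intervals are exact Poisson (levels and folds) or exact binomial (shares) at 95%. Cells were thinned to 2000 UMIs (seed 7), which left out shallower cells. A symbol on several rows was read from the row with the most UMIs. No doublet caller was used, and the deepest 5% of cells were left out as an alternative. Cells called CD3-high, B-lineage or myeloid held at least 3, 2 or 5 UMIs of their genes.

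Genes were named by rule. These were the 5 markers, the 12 highest and 12 lowest IL-23 ratios at 50 CPM or more, the 10 highest and 10 lowest against the other cells in the same direction in both libraries and against Ccr6+ cells, the 8 largest and 8 smallest differences, and up to 4 genes of each list. Antigen receptor segments, unnamed gene models and the genes of the rule were left out of the ranked parts. A single gene among the listed ones is not reported here. Gene extents come from GENCODE vM21 on GRCm38 and upstream sequences from the RefSeq table of GRCm38.p6. The scripts, run in Python 3.11.15 with numpy 2.4.6, scipy 1.17.1, pandas 2.3.3 and matplotlib 3.10.9, were tested on simulated data. Alternatives covered the cell filters, the rule's thresholds, the comparison cells, scaling, added UMIs, the filter on low counts and the fold.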

Additional observations from a re-analysis of the deposited data

Results flagged for a closer look

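Among the genes compared, 3 had IL-23 ratios of opposite direction in the Ncr1+ ILC3s and the other CD3-chain-negative cells, and the difference was not tested. Id3, which encodes an inhibitor of E proteins, had a log2 ratio of -2.02 in members against 0.96 in the others. Of its 76 unstimulated UMIs 63 came from 1 cell, without which the level was 1.98 CPM, and the share of members with a UMI was 1.27% unstimulated and 1.47% stimulated. Areg had 0.685 in members against -0.71 in the others, with 265 of 889 stimulated UMIs in 1 cell. Ier3, an immediate early gene, had -1.14 in members against 0.67 in the others, with 66 of 94 unstimulated UMIs in 1 cell, and its share of members was 1.86% unstimulated and 3.27% stimulated.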

How the results depend on the processing

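No paired analysis was possible because each group is 1 library. Of 7196 values of single genes and lists under 22 settings, 5906 were counted as unchanged, 1271 moved further and 19 reversed. Unchanged meant within the counting interval for a gene and within a fixed log2 tolerance for the median of a list. A reversal was counted only where the main value was at least 1.5-fold. A smaller value could thus change sign without being counted as reversed. The settings without the cell, the stimulated member or the unstimulated member that held the most UMIs of each gene were chosen after seeing the data. The cause of the changes was not tested. The 359 genes higher with IL-23 became 177 at 50 CPM or more, 176 at 2-fold, 627 without T cell receptor transcripts and 2598 with no filter beyond 1 UMI. The 507 lower became 176, 100, 1061 and 3108 under the same settings, 791 with at least 2 Ncr1 UMIs, 271 under TMM and 292 under the median of ratios. Only 128 and 194 members had no T cell receptor transcripts, and 299 and 401 had at least 2 Ncr1 UMIs. Numbers under these settings, here and below, thus carry more counting error. The 228 genes higher in members in both libraries became 465 against Ccr6+ cells, 104 against cells without Ncr1 or Ccr6, 107 at 50 CPM, 43 at 2-fold and 127 with the rule on thinned cells. The 240 lower became 620, 109, 60 and 97 under the first 4 of these. Larger ratios in members numbered 200 and smaller ones 166 with at least 2 Ncr1 UMIs, and 153 and 110 against Ccr6+ cells, and the 43 smaller ones became 28 without the unstimulated member of most UMIs. The stimulated share of CD3-chain-negative cells became 12.9% with no MHC class II UMI, 4.67% with at least 2 Ncr1 UMIs, 13.1% from 200 genes and 5.63% on thinned cells. The unstimulated share became 9.35%, 2.97% and 4.54% under the first, the second and the last. After thinning, the unstimulated and stimulated shares of members with a UMI were 7.89% and 3.30% for Csf2, 4.93% and 32.1% for Ctla4, 1.08% and 3.80% for Ifng, 3.06% and 20.4% for Il17f and 64.1% and 98.8% for Il22, and the stimulated shares 3.88% for Gzma and 5.53% for Il17a. The IL-23 log2 ratio reversed for Egr1 (0.095 with at least 2 Ncr1 UMIs, 0.026 with the rule on thinned cells, 0.025 without the deepest 5% of cells), for Ier3 (2.30 without T cell receptor transcripts, 0.56 without the deepest cells, 0.49 without its top cell in both libraries, 0.58 without the unstimulated one), for Tnfsf8 (0.53 without the deepest cells, 0.086 without its top unstimulated member), and for Bmp2 (-0.25) and Palld (-1.37) without T cell receptor transcripts. The difference for Hspa1a became 0.092 with at least 2 Ncr1 UMIs and 0.15 against Ccr6+ cells. Levels in members over other cells reversed for Hspa1a (0.58) and Hspa1b (0.50) on thinned cells, Ccl4 (1.90) and Iglc2 (0.31) against Ccr6+ cells, and Iglc2 (0.69) and Jchain (0.46) against others without B-lineage and myeloid transcripts.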

Other observations

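Several gene groups outside the comparisons above are given as values. They stand beside 5.21% of all measured genes higher and 7.36% lower with IL-23 in members. Counts near those shares are not read as results about a list. Of 17 measured interferon response genes 4 were at least 1.5-fold higher with IL-23 in members (Gbp2, Ifi203, Gbp5 and Stat2) and 0 lower, with a median log2 ratio of 0.10. Gbp2, a guanylate-binding GTPase, went from 29.4 to 107 CPM. The same 4 genes were higher in the other cells. Of 15 measured genes of lipid and cholesterol synthesis 2 were higher (Elovl6 and Fdft1) and 3 lower (Sqle, Idi1 and Cyp51), with a median of -0.36. Of 19 measured genes of glycolysis and hypoxia 6 were higher, among them Ldha and Hif1a, and 1 was lower, the hexokinase Hk2, from 882 to 403 CPM, with a median of 0.17. Of 9 measured cell cycle genes 1 was higher (Mcm3) and 0 lower. Of 13 mitochondrially encoded genes 0 were higher and 2 lower (mt-Atp8 and mt-Nd4l), with a median of 0.22.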
